A study of Mus musculus with 22 samples.

Results

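The genes described here are the UNC13 family (Unc13a, Unc13b, Unc13c and Unc13d) and 2 further genes of vesicle priming, Rph3a and Rims1, in astrocytes of the mouse optic nerve head (ONH) and proper optic nerve (ONP) after a rise in intraocular pressure. The members were found by gene symbol in the deposited count table, which gave 6 of 29367 genes, and all 6 passed the filter on low counts in every comparison. They were chosen with values of these libraries already known, among them the fall of Unc13c and Rph3a in the ONP between day 7 and day 30. Every comparison that uses ONP libraries is therefore given for the members as a description, without a p-value, and the members were tested only between the 2 days in the ONH.

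All mice carried an HA-tagged ribosomal protein, Rpl22, switched on by a Cre recombinase under a GFAP promoter (ribotag mice, B6J.129(Cg)-Rpl22tm1.1Psam/SjJ, crossed to the GFAP-Cre line 73.12 and labelled WT for genotype), and all had microbeads injected into the eye. The HA tag lets ribosomes be pulled down with an antibody, so the libraries hold the mRNA bound to ribosomes of cells in which GFAP-Cre had acted. The groups were ONH at day 7 (4 libraries), ONH at day 30 (7), ONP at day 7 (4) and ONP at day 30 (7), each library made from the tissue of 4 pooled mice, 2 male and 2 female, aged 3 to 4 months. The ONH and ONP of a pool came from the same animals, and untreated mice, saline-injected mice and unpurified lysates were not analysed here. The depth was 16292489 to 33307092 counts per library, and 3 counts, taken as the limit of a gene listed at 0, were worth 0.0901 to 0.184 CPM. CPM are counts divided by the library total, scaled here by the trimmed mean of M-values (TMM), and errors are SD over libraries for levels and SE for log2 fold changes. Defining markers of the labelled cell type, the astrocyte, were present, and the 8 listed ones summed to 12512 CPM or more in every library, with Gfap at 12683 CPM ± 3003 (SD, n = 7) in the ONH at day 30. Oligodendrocyte markers were also abundant, between 13323 and 108361 CPM for a list of 8 genes.

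UNC13 proteins ready a docked secretory vesicle for fusion by opening syntaxin, the target membrane SNARE, so that SNARE complexes can form. Unc13a, Unc13b and Unc13c encode the isoforms known from synapses, Unc13c being best known from cerebellar granule cells, while Unc13d acts in the release of lytic granules and other secretory granules in blood cells. Rph3a encodes rabphilin, a vesicle protein that binds RAB3 and RAB27, the small GTPases of secretory vesicles. Rims1 encodes an active zone scaffold that links RAB3 on the vesicle to UNC13 and to calcium channels.

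Unc13c lies on the minus strand of chr9:73479422-73968966 (GRCm38) and Rph3a on the minus strand of chr5:120940499-121010092. Because the levels of the 2 genes moved together across the libraries, the 250 bases before their RefSeq starts (GRCm38.p6) are shown, written 5′ to 3′ on the strand of the gene. The window of Unc13c is chr9:73969038-73969287 and that of the most upstream of 3 Rph3a starts is chr5:121010093-121010342. Capitals mark matches to an E-box (CANNTG) in Unc13c, and in Rph3a an E-box that overlaps a match to the AP-1 motif (TGANTCA).
Unc13c: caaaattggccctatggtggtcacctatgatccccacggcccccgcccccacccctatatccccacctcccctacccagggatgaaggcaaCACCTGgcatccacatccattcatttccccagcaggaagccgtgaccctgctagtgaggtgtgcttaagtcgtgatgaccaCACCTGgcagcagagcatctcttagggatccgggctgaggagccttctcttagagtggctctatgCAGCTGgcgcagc
Rph3a: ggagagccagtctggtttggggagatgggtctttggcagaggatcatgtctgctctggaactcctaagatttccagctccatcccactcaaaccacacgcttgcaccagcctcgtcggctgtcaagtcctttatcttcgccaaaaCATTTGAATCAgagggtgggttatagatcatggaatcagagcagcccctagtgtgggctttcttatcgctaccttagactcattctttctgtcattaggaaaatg
The Unc13c window held 3 E-boxes, at 159, 78 and 13 bases before the start, and the Rph3a window held 1 E-box at 105 and 1 AP-1 match at 101 bases. E-boxes occurred in 66.2% of 32851 RefSeq promoter windows of the same length and AP-1 matches in 6.75%. No match to the CRE letters TGACGTCA (1.55% of windows), the STAT letters TTCNNNGAA (7.02%), the SOX letters ACAATG (10.7%) or the NFI motif (0.0365%) was found in either window on either strand. The windows of the other Rph3a starts, chr5:121009539-121009788 and chr5:121008485-121008734, held 1 and 3 E-boxes and none of the other motifs. The Unc13c and Rph3a windows thus shared E-box letters and no other searched motif, and their GC contents were 58.8% and 48.8%. Such matches are a description of letters, and no binding was measured.

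Unc13c had the highest mean level of the members in all 4 groups, although in the ONP at day 30 it was close to Unc13b (19.8 and 17.8 CPM, with overlap). Its level in the ONP was 10.5-fold lower at day 30 than at day 7. In the 4 ONP libraries of day 7, Unc13c stood at 274, 218, 187 and 135 CPM, a mean of 204 CPM ± 58.1 (SD, n = 4). At day 30 the lowest, median and highest of the 7 ONP libraries were 14.6, 18.4 and 27.5 CPM, with a mean of 19.8 CPM ± 4.83 (SD, n = 7). The groups did not overlap, and every day 30 library was below every day 7 library. The edgeR log2 fold change was −3.40 ± 0.21 (SE), a 10.5-fold lower level, and 12 of the 15491 genes tested had a lower fold change. Across all genes tested in the ONP between the days, 17% were called at an adjusted p under 0.05, 9.21% as lower and 7.82% as higher at day 30, and 5.55% had all day 30 libraries below all day 7 libraries.

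Rph3a moved in the ONP by nearly the same factor from a lower level. The 4 day 7 libraries held 21.9, 14.8, 20.0 and 17.7 CPM, a mean of 18.6 CPM ± 3.08 (SD, n = 4). At day 30 the lowest, median and highest values were 1.13, 1.87 and 2.6 CPM, with a mean of 1.81 CPM ± 0.512 (SD, n = 7). Again the groups were apart, and the log2 fold change was −3.38 ± 0.23 (SE), a 10.4-fold lower level. The day 30 values rested on 20 to 56 counts per library, above the limit of 3 counts. When each ONP library was left out in turn, the log2 fold changes ran from −3.53 to −3.19 for Unc13c and from −3.50 to −3.27 for Rph3a.

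**Figure D1:**
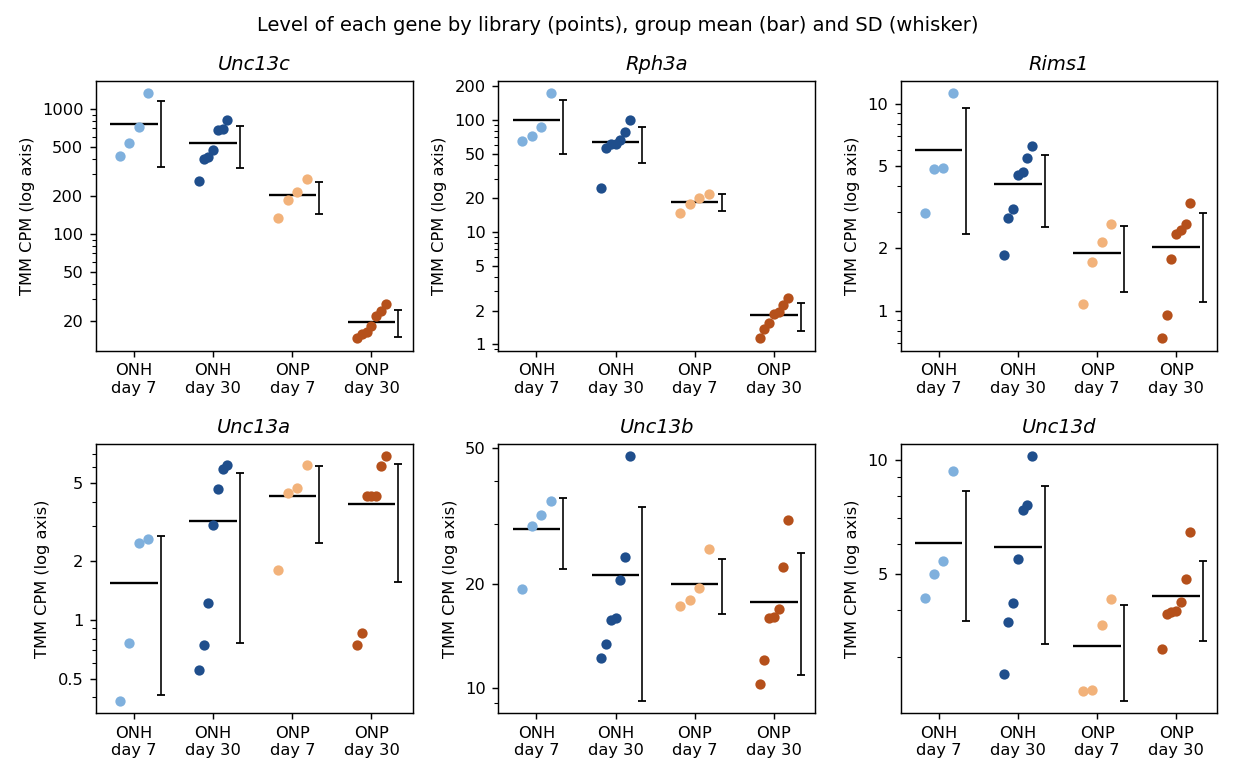
Level of each of the 6 genes in the 22 libraries, in TMM-scaled CPM on log axes, by region and day; each point is a library of 4 pooled mice, the bar is the group mean and the whisker its SD. Unc13c and Rph3a in the ONP at day 30 (means of 19.8 and 1.81 CPM) lie below every other library, while the remaining genes overlap between days.

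The other members showed no such step in the ONP. Rims1 was at 1.90 CPM ± 0.660 (SD, n = 4) at day 7 and 2.03 CPM ± 0.933 (SD, n = 7) at day 30, a log2 fold change of 0.06 ± 0.43 (SE). Unc13b stood at 20.0 CPM ± 3.67 (SD, n = 4) and 17.8 CPM ± 6.94 (SD, n = 7), with a log2 fold change of −0.21 ± 0.26 (SE). Unc13a was at 4.27 CPM ± 1.82 (SD, n = 4) and 3.90 CPM ± 2.35 (SD, n = 7), a log2 fold change of −0.16 ± 0.56 (SE). For these 3 genes the difference was smaller than its standard error and the libraries of the days overlapped. Unc13d was at 3.21 CPM ± 0.912 (SD, n = 4) at day 7 and 4.35 CPM ± 1.04 (SD, n = 7) at day 30, a log2 fold change of 0.41 ± 0.26 (SE), and 2 of the 7 day 30 libraries were above all day 7 libraries. Exons of Unc13a overlap those of Colgalt1 on the opposite strand, and whether strand was used in counting is not given in the sources used here, so reads of the 2 genes may not have been separated.

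In the ONH, the same genes were tested between the days and none of the 6 passed. Unc13c was at 1334, 421, 723 and 530 CPM in the 4 libraries of day 7, a mean of 752 CPM ± 408 (SD, n = 4). The 7 libraries of day 30 had a lowest, median and highest level of 265, 471 and 815 CPM, with a mean of 534 CPM ± 198 (SD, n = 7). Of the 7 day 30 libraries, 4 lay within the range of day 7 and 3 below it, and the log2 fold change was −0.49 ± 0.33 (SE) with an edgeR adjusted p of 0.515. Rph3a was at 173, 65.2, 86.2 and 72.5 CPM at day 7 and at 24.9, 61.4 and 99.2 CPM (lowest, median and highest) at day 30, a log2 fold change of −0.63 ± 0.32 (SE) and an edgeR adjusted p of 0.393. One pool, library 1 of the ONH at day 7, held the highest level of Unc13c, Rph3a and Rims1 in its group. Without it the ONH log2 fold changes were −0.08 for Unc13c, −0.24 for Rph3a and −0.05 for Rims1.

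For the remaining members of the ONH the log2 fold changes from day 7 to day 30 were −0.53 ± 0.42 (SE) for Rims1, −0.43 ± 0.34 for Unc13b, −0.03 ± 0.39 for Unc13d and 1.06 ± 0.76 for Unc13a. The edgeR adjusted p-values were 0.580 for Rims1, 0.585 for Unc13b, 0.978 for Unc13d and 0.541 for Unc13a. Unc13a, for which the fold change was positive, had 0.760, 0.383, 2.46 and 2.58 CPM at day 7 and from 0.552 to 6.13 CPM at day 30, from 7 to 137 counts a library. No gene at all passed in the ONH at an adjusted p under 0.05 (0% of 15668 genes tested, edgeR), although 2179 genes (13.9%) had an unadjusted p under 0.05 and DESeq2 called 446. That no member passed does not show that their levels in the ONH stayed the same.

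For Unc13c the ratio of day 30 to day 7 was 7.52-fold lower in the ONP than in the ONH, an interaction of −2.91 ± 0.44 (SE) on the log2 scale, ONP minus ONH. For Rph3a the interaction was −2.76 ± 0.42 (SE), and for Rims1, Unc13b, Unc13d and Unc13a it was 0.59 ± 0.61, 0.23 ± 0.45, 0.44 ± 0.48 and −1.23 ± 0.97. Among all 16748 genes fitted over the 22 libraries, 0.543% were called for this contrast and 0.394% with a negative sign. As the ONP libraries took part in choosing the genes, nothing is read from these values beyond their size.

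**Figure D2:**
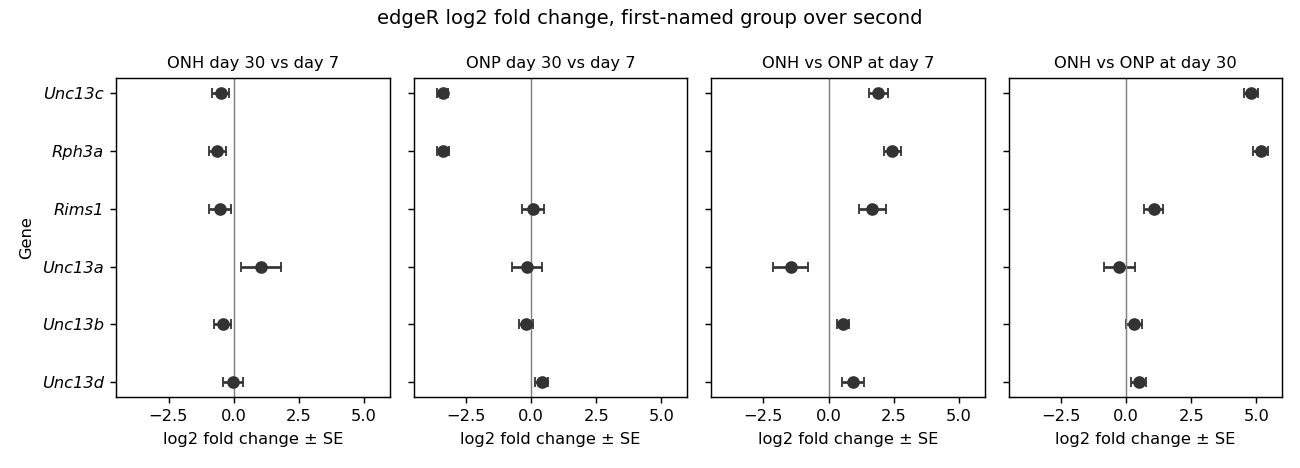
Log2 fold change with its SE (whiskers) for each of the 6 genes in 4 comparisons, from edgeR. In the ONP, Unc13c and Rph3a lie at −3.40 and −3.38, while in the ONH they lie at −0.49 and −0.63, and the regional difference of both is wider at day 30 (4.79 and 5.17) than at day 7 (1.91 and 2.44).

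Between the regions, Unc13c and Rph3a were higher in the ONH than in the ONP at both times. At day 7 every ONH library was above every ONP library for Unc13c (421 to 1334 against 135 to 274 CPM), with a log2 difference of 1.91 ± 0.36 (SE). Rph3a at day 7 ran from 65.2 to 173 CPM in the ONH against 14.8 to 21.9 CPM in the ONP, a log2 difference of 2.44 ± 0.32 (SE). At day 30 the log2 differences were 4.79 ± 0.26 (SE) for Unc13c, 27.7-fold, and 5.17 ± 0.28 (SE) for Rph3a, 35.9-fold. All 7 ONH libraries were above all 7 ONP libraries for both genes. Across all genes, 13.2% of 14752 were called between the regions at day 7 (6.34% higher and 6.81% lower in the ONH) and 41.8% of 15133 at day 30 (21.8% higher and 20% lower), and 9.88% and 8.48% had every ONH library above every ONP library.

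Rims1 and Unc13d were also higher on average in the ONH. Rims1 was at 5.98 CPM ± 3.62 (SD, n = 4) in the ONH and 1.90 CPM ± 0.660 in the ONP at day 7, with no overlap (2.98 to 11.2 against 1.07 to 2.63 CPM) and a log2 difference of 1.68 ± 0.53 (SE). At day 30 it was at 4.1 CPM ± 1.58 (SD, n = 7) and 2.03 CPM ± 0.933 (SD, n = 7), a log2 difference of 1.06 ± 0.35 (SE), with 4 of 7 ONH libraries above the whole ONP group. Unc13d at day 7 was at 6.02 CPM ± 2.27 (SD, n = 4) in the ONH, from 4.32 to 9.36, and in the ONP from 2.45 to 4.28 CPM, a log2 difference of 0.94 ± 0.43 (SE). The Unc13d ranges were narrowly apart at day 7 and overlapped at day 30, when the log2 difference was 0.48 ± 0.28 (SE).

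Unc13b was higher on average in the ONH at day 7, when 3 of the 4 ONH libraries were above the whole ONP group. Its log2 difference, ONH over ONP, was 0.55 ± 0.23 (SE) at day 7 and 0.30 ± 0.31 (SE) at day 30. One pool carried the day 30 value: ONH replicate 4 held 47.4 CPM, against 12.2 to 24.1 CPM in the other 6 ONH libraries, and without it the log2 difference was −0.04. The summed level of 8 photoreceptor markers was also highest of its group in that pool, 2361 CPM against 109 to 444 CPM in the others, and its part in the Unc13b value was not tested. Unc13a was the only member with a lower mean in the ONH at both days, at 1.54 CPM ± 1.14 (SD, n = 4) against 4.27 CPM ± 1.82 at day 7 and 3.17 CPM ± 2.41 (SD, n = 7) against 3.90 CPM ± 2.35 at day 30. The log2 differences were −1.46 ± 0.67 (SE) and −0.26 ± 0.59 (SE), and the libraries overlapped at both times.

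In order of mean level, Unc13c and Rph3a ran from ONH at day 7 through ONH at day 30 and ONP at day 7 to ONP at day 30. The ONH groups of both genes overlapped. For Unc13c, 1 ONH library of day 30 (265 CPM) fell below the highest ONP library of day 7 (274 CPM), whereas for Rph3a those neighbours were apart (24.9 against 21.9 CPM). The ONP at day 30 was apart from the other groups for both genes. Divided by exon length, the mean Unc13c level was 85.5 CPM per kb in the ONH at day 7, 60.7 at day 30, 23.2 in the ONP at day 7 and 2.26 at day 30. Rph3a was at 21.4, 13.7, 4.01 and 0.391 CPM per kb in the same order. The other UNC13 genes and Rims1 were at 1.29 CPM per kb or less in every group, and Unc13c was highest by this measure in all 4 groups. The length used was that of all annotated exons of a gene joined, 22746 bases for Unc13b and 8796 for Unc13c. Which transcripts were in use was not examined, and shorter ones would raise these values. The order of Unc13c and Unc13b in the ONP at day 30 therefore rests on that choice of length. At day 30 in the ONP, Rph3a per length was below Unc13d (0.930 CPM per kb) and Unc13b (0.783 CPM per kb).

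Unc13c and Rph3a also kept to each other from library to library. Over the 22 libraries the Pearson correlation of log2 levels was 0.992, and it was 0.855 after the group means were taken out. In both cases Rph3a was the gene most like Unc13c of all 16747 others. Within the 7 ONH libraries of day 30 the correlation was 0.900 and within the 7 ONP libraries of day 30 it was 0.789. The ratio of Unc13c to Rph3a CPM was 7.47 ± 0.812 (SD, n = 4) in the ONH at day 7, 8.53 ± 1.58 (SD, n = 7) in the ONH at day 30, 11.1 ± 3.19 (SD, n = 4) in the ONP at day 7 and 11.2 ± 1.94 (SD, n = 7) in the ONP at day 30. In the ONP the mean ratio thus differed between the days by less than its SD, while the level of each gene was more than 10-fold apart. These correlations describe points that share libraries, regions and days. Both genes were chosen with their fall in the ONP known, and the value of 0.992 and the ONP ratios rest in part on that fall.

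**Figure D3:**
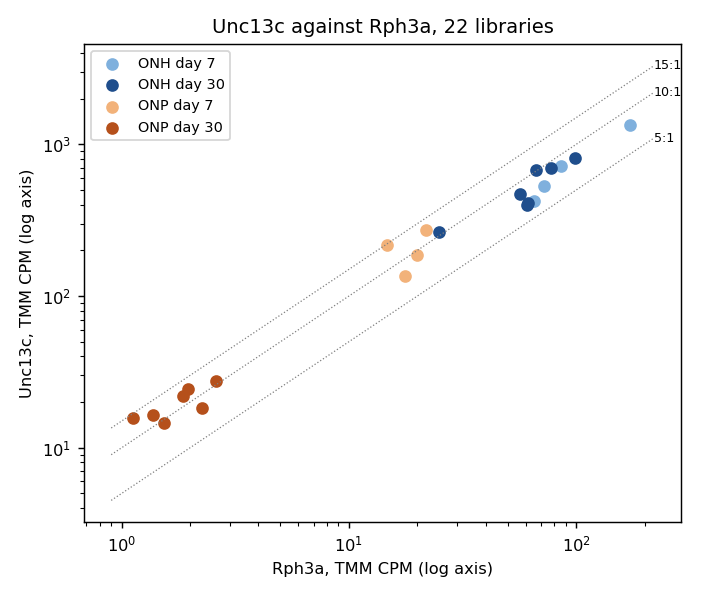
Unc13c against Rph3a in the 22 libraries, TMM-scaled CPM on log axes, coloured by region and day; dotted lines mark fixed ratios of Unc13c to Rph3a. The points run along a band, with mean ratios from 7.47 to 11.2 in the 4 groups, and the ONP libraries of day 30 form a cluster of their own at its lower end.

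The genes whose levels were most like Unc13c over the 22 libraries, after Rph3a, were Ppfia3 (r = 0.964), Nefh (0.962), Filip1l (0.948), Fam189b (0.946), Nrsn1 (0.943), Kif5a (0.943) and Clrn1 (0.939). For Rph3a the list after Unc13c was Ppfia3 (r = 0.976), Nefh (0.974), Filip1l (0.961), Fam189b (0.955), Sptbn4 (0.953), Kif5c (0.951) and Clrn1 (0.949). Ppfia3 encodes liprin-α3, an active zone scaffold, Nefh the heavy neurofilament chain, Sptbn4 a spectrin of axon initial segments and nodes, and Kif5a and Kif5c are kinesin motors of axonal transport. With the group means taken out, the correlation to Unc13c stayed at 0.724 for Ppfia3, 0.702 for Nefh and 0.685 for Kif5a, but was 0.351 for Filip1l, 0.147 for Clrn1 and −0.20 for Fam189b. Sptbn4 had mean levels of 124, 47.9, 12 and 1.59 CPM in the ONH at day 7, ONH at day 30, ONP at day 7 and ONP at day 30.

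Because Nefh is one of 12 listed neuron markers, the neuron list is set beside the members. Nefh was at 6.11, 2.49, 4.89 and 5.22 CPM in the ONP at day 7 and from 0.0495 to 0.772 CPM at day 30, a log2 fold change of −3.66 (edgeR adjusted p = 0.00107). The other neurofilament chains were lower too, Nefl by a log2 fold change of −1.94 (edgeR adjusted p = 0.0101) and Nefm by −1.76 (edgeR adjusted p = 0.0173), while Sncg, gamma-synuclein, abundant in retinal ganglion cells, was higher (1.87, edgeR adjusted p = 0.00204). Of the 9 neuron markers tested in the ONP, 3 were lower at day 30 and 1 higher. The summed level of the 12 was 213 to 381 CPM at day 7 and 111 to 304 CPM at day 30, with Tubb3 making up most of it. Of the list, Rbfox3, Pou4f1 and Slc17a6 were at or near 0 in the ONP, with means of 0.0104, 0.233 and 0 CPM at day 7 and 0.0917, 0.0400 and 0.0208 CPM at day 30. Their ONH means were 0.228, 0.970 and 0.780 CPM at day 7 and 0.373, 0.435 and 0.614 CPM at day 30. The remaining listed genes were detected in the ONP. Gap43, Rbpms, Stmn2 and Thy1 had means of 36.7, 5.54, 2.29 and 0.604 CPM at day 7 and 49.5, 5.16, 1.66 and 2.08 CPM at day 30. In the ONH, where no gene passed between the days (0% of all genes tested), the 11 neuron markers tested had a median log2 fold change of −0.58, and the summed level of the 12 was 150 to 251 CPM at day 7 and 76.2 to 191 CPM at day 30.

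Between the regions, neurofilament genes were higher in the ONH, as Unc13c and Rph3a were. Nefh had a log2 difference, ONH over ONP, of 3.34 at day 7 and 5.67 at day 30 (edgeR adjusted p = 0.00157 and 9.53e-07), and Nefl one of 1.86 and 3.20 (edgeR adjusted p = 0.0147 and 3.64e-05). Nefm differed by 0.86 at day 7 (edgeR adjusted p = 0.319) and by 2.85 at day 30 (edgeR adjusted p = 2.54e-05). Of the 9 neuron markers tested, 3 were higher and 2 lower in the ONH at day 7, and 3 were higher and 3 lower at day 30. Tubb3 was among the lower ones, at 67.1 against 215 CPM at day 7 and 48.4 against 115 CPM at day 30, and it set the order of the sums. The mean sum of all 12 was lower in the ONH (205 against 280 CPM at day 7, 144 against 184 CPM at day 30), and without Tubb3, a choice made after seeing the data, it was higher (138 against 65.3 CPM and 95.5 against 68.2 CPM).

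Other cells' markers differed in the ONP between the days as well. The oligodendrocyte list was at 80628 to 108361 CPM in the ONP at day 7 and 25535 to 84462 CPM at day 30, and 6 of its 8 genes were lower at day 30. Lower too were 3 of 6 endothelial markers tested (Pecam1 −2.70, Tek −2.26 and Cldn5 −1.89 on the log2 scale), 2 of 6 photoreceptor markers (Pdc −3.30 and Gnat1 −2.36) and 2 of 6 mural and fibroblast markers (Rgs5 −1.66 and Acta2 −1.18). So were 1 of 3 pigment cell markers (Rpe65 −3.14) and 1 of 4 epithelial markers (Krt14 −5.53), while 0 of 6 microglial and 0 of 4 oligodendrocyte precursor markers were called. Of these log2 fold changes, only that of Krt14 was larger in size than those of Unc13c and Rph3a (−3.40 and −3.38). Those of Pdc and Rpe65 were next in size, and no marker of these lists was called higher. Of the 8 astrocyte markers, 0 were called between the days in either region, and their sum in the ONP was 14882 to 20931 CPM at day 7 and 14329 to 32527 CPM at day 30. Between the regions, photoreceptor and pigment cell lists were higher in the ONH (7 of 8 and 6 of 6 genes at day 7, 8 of 8 and 6 of 6 at day 30). In the ONH at day 7, the photoreceptor sum was 164, 176, 1598 and 6011 CPM in libraries 1, 3, 5 and 6. Unc13c stood at 1334, 421, 723 and 530 CPM in the same order. The part of these cell types in the members' values was not tested, and in pooled tissue fewer cells of a type and less mRNA per cell cannot be told apart.

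To place the regional difference of Unc13c and Rph3a, 10 genes named by the study as marking ONH against ONP astrocytes were set beside them. That list was chosen after values were seen. The study named these genes from comparisons of ONH with ONP in untreated mice and at day 30, the latter in these same libraries. A low ONP level at day 30 was therefore part of how they were selected. The mean ONP level of Unc13c was 27.1% of the ONH level at day 7 and 3.72% at day 30, and that of Rph3a 18.8% and 2.84%. The 10 genes had a median of 8.84% at day 7 (0.949% to 23.6%) and 4.85% at day 30 (0.225% to 17.2%). Clec18a was too low to be tested in the ONP between the days. Over all genes tested there, 9.21% were called lower and 7.82% higher at day 30. Of the other 9 named genes, 3 were lower at day 30 and 0 higher. These were Cartpt, a secreted neuropeptide precursor (log2 fold change −2.01, edgeR adjusted p = 0.0231), Mgarp, a mitochondrial protein (−1.82, edgeR adjusted p = 0.00171), and Tes, a focal adhesion protein (−1.35, edgeR adjusted p = 0.00173). At day 7 the ONP percentages of Unc13c and Rph3a were in the upper part of the range of these ONH genes, Unc13c above all 10, and at day 30 they were below the median of the list.

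**Figure D4:**
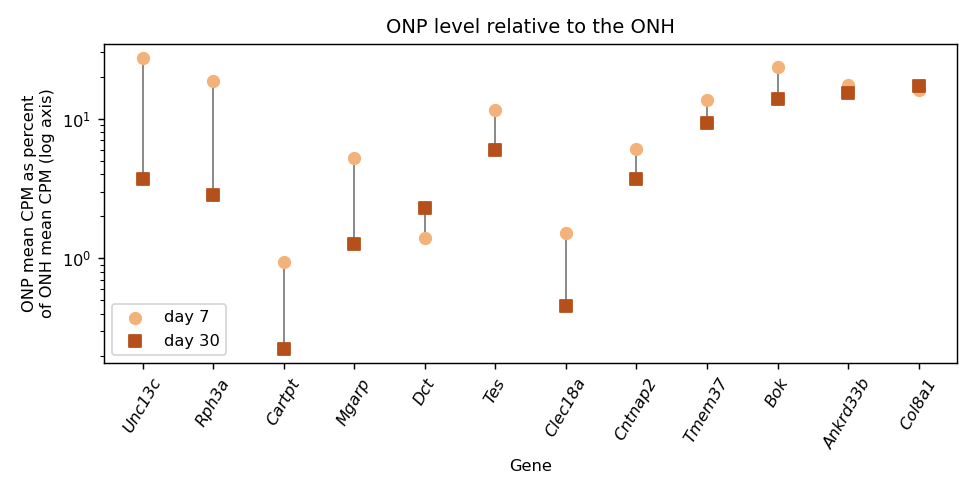
Mean ONP level as a percentage of the mean ONH level at day 7 (circles) and day 30 (squares), on a log axis, for Unc13c, Rph3a and 10 genes that the study named as marking the ONH. The study named them in part from these day 30 libraries. Unc13c goes from 27.1% to 3.72% and Rph3a from 18.8% to 2.84%, and the 10 genes have medians of 8.84% and 4.85%.

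The wider exocytosis machinery was then taken from a list of 98 other genes, grouped by role, to see whether it changed with Unc13c and Rph3a. In the ONP, 17 of the 86 tested genes (19.8%) passed between the days, close to the 17% over all genes, with 8 higher and 9 lower at day 30. The median log2 fold change of the 86 was −0.01, as it was over all genes tested. When libraries were scaled by their total only, which shifted the median of all genes by 0.114, the split was 12 higher and 8 lower, and over all genes the share of calls that were lower went from 54.1% to 33.3%.

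Of the 11 vesicle membrane genes tested in the ONP, 4 were called, 3 lower and 1 higher at day 30, the higher one being Syn2, named after its value was seen (log2 fold change 1.27 ± 0.40, SE; edgeR adjusted p = 0.0479). Synpr, which encodes synaptoporin, was at 9.10 CPM ± 1.51 (SD, n = 4) at day 7 and 2.13 CPM ± 1.18 (SD, n = 7) at day 30, a log2 fold change of −2.13 ± 0.38 (SE; edgeR adjusted p = 0.00374). Sv2b and Sv2a, vesicle glycoproteins that bind synaptotagmin, were lower by log2 fold changes of −1.64 ± 0.23 and −0.97 ± 0.21 (SE; edgeR adjusted p = 0.00135 and 0.0101). For Sv2b the 4 day 7 libraries ran from 11.3 to 13.6 CPM and the day 30 libraries from 2.43 to 5.69 CPM. Neither range of Synpr or Sv2b overlapped between the days.

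Of the active zone genes, Ppfia3 was at 10.3 CPM ± 1.97 (SD, n = 4) and 3.05 CPM ± 0.527 (SD, n = 7), a log2 fold change of −1.79 ± 0.20 (SE; edgeR adjusted p = 0.000435). Rims3, a short RIM protein, went the other way, from 7.27 CPM ± 3.22 (SD, n = 4) to 28.8 CPM ± 10.4 (SD, n = 7), a log2 fold change of 1.96 ± 0.34 (SE; edgeR adjusted p = 0.00336). Rims1 and Rims3 thus differed in the ONP, since Rims1 had a log2 fold change of 0.06 ± 0.43. Among SNAREs, Vamp8, a SNARE of endosomes and secretory granules, rose by 0.66 ± 0.10 (SE; edgeR adjusted p = 0.00214). In all, 2 of the 16 SNARE genes were called.

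Synaptotagmins and their relatives, the calcium sensors and lipid-binding proteins of exocytosis, had 6 of 17 tested genes called, 4 higher and 2 lower at day 30. Syt11 was the most abundant of those named, at 2621 CPM ± 208 (SD, n = 4) and 1685 CPM ± 317 (SD, n = 7), a log2 fold change of −0.67 ± 0.14 (SE; edgeR adjusted p = 0.00825). Sytl2, a RAB27 effector, fell from 101 CPM ± 6.61 (SD, n = 4) to 50.5 CPM ± 6.86 (SD, n = 7), a log2 fold change of −1.04 ± 0.11 (SE; edgeR adjusted p = 0.000357). Syt17 and Syt9 rose by log2 fold changes of 2.21 ± 0.34 and 1.2 ± 0.28 (SE; edgeR adjusted p = 0.00187 and 0.0148), Syt17 from a level of 0.707 CPM. Among the genes of RAB3 and RAB27, 1 of 14 passed, Rab3gap2, a regulatory subunit of the RAB3 GTPase-activating complex, at −0.74 ± 0.16 (SE; edgeR adjusted p = 0.0100). The exocytosis genes named for the ONP, other than Syn2, stayed past the threshold whichever ONP library was left out, while Syn2 passed in 4 of 11 such fits. In one fit over all 4 groups, Syt17 did not pass.

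**Figure D5:**
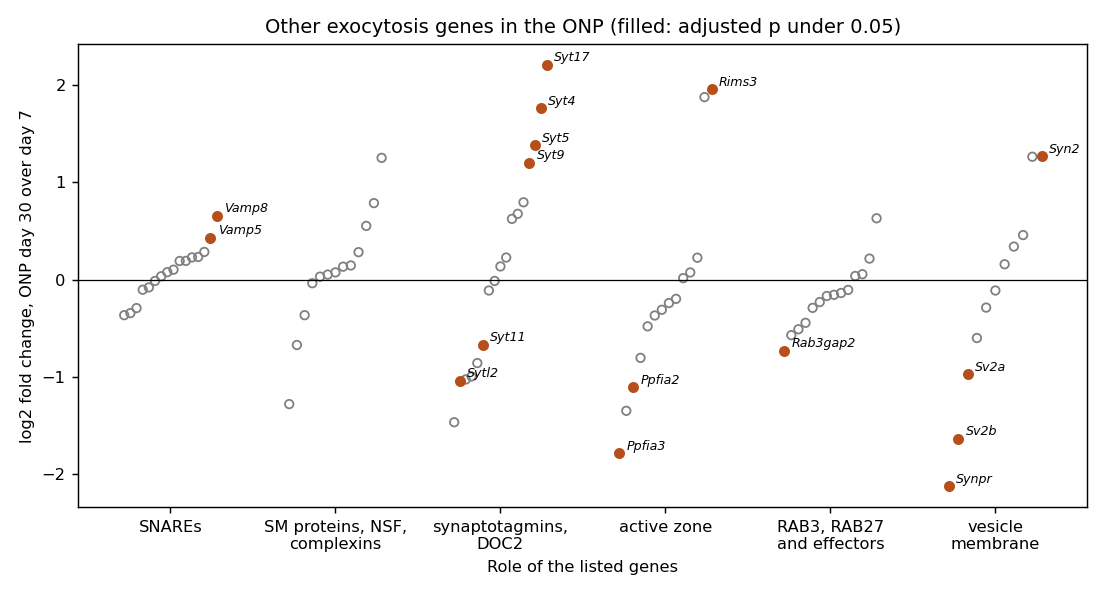
Log2 fold change in the ONP, day 30 over day 7, of the tested exocytosis genes other than the 6 members, by role, with 1 gene left out; filled points passed an edgeR adjusted p of 0.05 and open points did not. Of the filled points, 8 are above and 8 below 0, and none of the points is as low as Unc13c (−3.40) or Rph3a (−3.38).

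In the ONH, 0 of the 87 exocytosis genes tested passed between the days with edgeR, 11 had an unadjusted p under 0.05, and DESeq2 called 2. For the interaction of region and day, 3 of 89 genes passed, all of the vesicle membrane: Synpr (−3.13 ± 0.67, SE; edgeR adjusted p = 0.0328), Sv2a (−1.50 ± 0.33; edgeR adjusted p = 0.0388) and Sv2b (−1.75 ± 0.39; edgeR adjusted p = 0.0432). Each was near the threshold, and with 1 library left out Synpr passed in 11 of 22 fits, Sv2a in 5 and Sv2b in 5.

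Between the regions, the exocytosis genes showed differences in both directions. At day 7, 14 of 83 (16.9%) passed beside 13.2% of all genes, 9 higher and 5 lower in the ONH. Higher in the ONH were Ppfia3 (2.52 ± 0.33 on the log2 scale, SE; edgeR adjusted p = 0.000823), Sv2b (2.34 ± 0.27; 0.000448), Syt4 (3.99 ± 0.66; 0.00306) and Vamp8 (1.29 ± 0.21; 0.00289). Lower in the ONH were Syt11 (−1.46 ± 0.14; edgeR adjusted p = 0.000233), Sv2a (−1.97 ± 0.25; 0.000793), Stxbp6 (−1.48 ± 0.23; 0.00200) and Stxbp3 (−0.93 ± 0.16; 0.00320). Sv2a and Sv2b, paralogs, thus lay on opposite sides, with Sv2a at 65.2 CPM in the ONH and 261 CPM in the ONP and Sv2b at 61.4 and 12.3 CPM.

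At day 30, 36 of 85 (42.4%) passed beside 41.8% of all genes, 20 higher and 16 lower in the ONH. Ppfia3 (3.53 ± 0.23, SE; edgeR adjusted p = 3.78e-08) and Sv2b (4.06 ± 0.28; 9.11e-08) were again higher in the ONH, as were Vamp8 (1.14 ± 0.15; 3.24e-05) and Ppfia2, liprin-α2 (1.93 ± 0.26; 3.46e-05). The synapsins Syn2 (−2.92 ± 0.29; edgeR adjusted p = 3.12e-06) and Syn1 (−1.99 ± 0.29; 7.68e-05), Rims3 (−1.98 ± 0.29; 8.36e-05) and Stxbp3 (−0.94 ± 0.11; 1.59e-05) were lower in the ONH. All 8 passed with each of the 14 libraries left out in turn. The share of called genes was close to that over all genes at both days. The mean photoreceptor marker sum was 1988 CPM in the ONH and 53.8 CPM in the ONP at day 7. At day 30 it was 531 and 12.3 CPM, and its part in these differences was not tested.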

How the data were processed

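Ribosome-bound mRNA was measured by RNA-seq in 22 libraries of pooled tissue. The authors aligned the reads to mm10 with STAR 2.6.1d. They quantified transcripts of Ensembl release 94 with Salmon 0.14.2 and summed them per gene. These estimated counts were deposited as whole numbers and were tested here as deposited. The authors also deposited variance stabilized values on a log2 scale, made with DESeq2 1.34.0 in R 4.1.0, which served as an alternative only. All libraries were prepared and sequenced together, per the study's methods. Total counts per library ran from 16292489 to 33307092, which sets the precision of low genes, and counting limits cover counting error only.

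Day 30 columns were matched to replicates by number. The 7 day columns carry numbers that differ from those of the labels, so they were assigned to region and day only and are called library 1, 3, 5, 6 (ONH) and 1, 2, 5, 6 (ONP). Each comparison was fitted on the whole table with edgeR 4.0.16 in R 4.3.3 (TMM, filterByExpr by group, glmQLFit and glmQLFTest, Benjamini-Hochberg over all genes tested, threshold 0.05). The standard error of a log2 fold change is its size divided by the square root of the F statistic. The design used pairwise comparisons as in the study's methods, whose test, DESeq2, is an alternative (version 1.42.0 here). P-values set a difference against the spread between libraries of a group, each library being a pool. The region comparisons were fitted as unpaired, although ONH and ONP came from the same animals, except with the replicate block at day 30. The script was tested on simulated data. Correlations used log2 of CPM plus 0.5. Sequences and starts are from RefSeq, gene positions and exon lengths from the annotation of the same build.

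Named were the 6 members; of the other exocytosis genes past the threshold, the 12 with the smallest p in the ONP between days (1 of them is not reported here) and the 8 with the smallest p in each other comparison; and the 8 genes most correlated with Unc13c and with Rph3a. The members and lists were chosen with earlier results of these data known. The study states that ONH and ONP came from the same mice, and at day 30 they were paired here by replicate number. Deviations from the group means correlated between same-numbered libraries by 0.107 to 0.547 in all 7 pairs (median 0.274, other pairs −0.0982). Of the 7 ONH libraries, 3 correlated most with the ONP library of the same number, so the match of numbers is not certain. Alternatives were DESeq2, other size factors, no filter on low counts, all 4 groups in one fit, the replicate block, each library left out and, added after seeing the data, the authors' log2 values.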

Additional observations from a re-analysis of the deposited data

Results flagged for a closer look

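Unc13b in ONH replicate 4 of day 30 stood at 47.4 CPM, while the other 6 libraries of that group ran from 12.2 to 24.1 CPM. Its gap to the nearest library was 0.662 of the whole range of the group, above Dixon's 95% critical value for 7 libraries. Of the 24 groups of member values looked at, 1 was flagged in this way, and chance alone flags about 1 in 20.

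Synpr, Sv2a and Sv2b, all of the synaptic vesicle membrane, had changes from day 7 to day 30 that differed between the regions by the interaction test. The differences, ONP minus ONH on the log2 scale, were −3.13 for Synpr, −1.50 for Sv2a and −1.75 for Sv2b. The log2 fold changes from day 7 to day 30 were −2.13, −0.97 and −1.64 in the ONP for Synpr, Sv2a and Sv2b, and 1.01, 0.53 and 0.12 in the ONH (edgeR adjusted p = 0.410, 0.344 and 0.889). For Sv2a and Sv2b the interaction did not pass under RLE size factors, total-count scaling or without the filter on low counts.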

How the results depend on the processing

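The signs of the Unc13c and Rph3a fold changes were the same in all 5 comparisons under each alternative run. The sizes moved most with the authors' log2 values, for Rph3a to −2.63 in the ONP between days, 4.27 between regions at day 30 and −2.02 for the interaction. For Unc13d in the ONH between days, which is near 0, the sign turned in one fit of all 4 groups (0.00082), and with 1 library left out it ran from −0.22 to 0.29. Calls over all genes with all 4 groups in one fit were 1189 in the ONP between days (2638 as reported), 292 in the ONH (0) and 3785 between regions at day 7 (1940). DESeq2 called 446 in the ONH, 3211 between regions at day 7 and 409 for the interaction (91), and without a filter the ONH gave 2 and the interaction 50. The exocytosis count in the ONH was 2 with DESeq2 and 2 with all 4 groups; for the interaction it was 7 with DESeq2 and 1 with RLE factors, with library size only and with no filter. The cause was not tested.

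With 1 library left out, calls ran from 1439 to 3214 in the ONP (lowest without day 7 library 6), from 0 to 167 in the ONH (highest without day 7 library 5), from 1102 to 2379 between regions at day 7 (lowest without ONP library 6, and 1147 and 1173 without ONP libraries 2 and 5), from 5671 to 6416 at day 30 and from 22 to 318 for the interaction (22 without ONP day 7 library 1, 2 or 6, and 318 without ONH day 7 library 5). Exocytosis counts ran from 12 to 19, 0 to 2, 11 to 16, 31 to 37 and 0 to 4 in the same order. With the replicate block at day 30, 6717 genes and 36 exocytosis genes were called, against 6322 and 36 without it (17 higher and 19 lower exocytosis genes, against 20 and 16), and the Unc13c and Rph3a log2 differences were 4.73 and 5.10; among the named genes the pairing changed no call. The blocks at day 7 and for the interaction were not run, since the day 7 columns carry no label numbers. Depth limits Unc13a and Rims1 most, with as few as 7 and 13 counts in a library.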
